A study of Homo sapiens with 6 samples.

Results

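The genes described here are 5 genes of the melanocyte lineage or of the melanoma cell surface: EDNRB, RAB38, S100A1, CSPG4 and ST8SIA1. They were chosen by name among the 2778 features of the deposited count table, and all 5 were present, each as 1 row. The table compares A375 cells, an established human melanoma line, that overexpress cytoglobin (genotype CYGB-overexpression, n = 3 libraries, untreated) with A375 cells of genotype WT (n = 3 libraries, untreated). Cytoglobin is a globin, one of the haem-containing proteins. Both groups were grown in DMEM with fetal bovine serum. The labels name neither the construct nor an empty-vector line, and they do not say whether the overexpressing cells are 1 clone or a pool, so effects of cytoglobin and of making the line cannot be told apart. Whether libraries of 1 group are separate cultures is not stated, so the p-values describe the spread among these libraries alone, which may be technical.

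Melanocytes arise from the neural crest, and several of their genes stay active in melanoma, where they serve as lineage markers or as targets of antibodies. EDNRB is the receptor through which endothelins keep melanocyte precursors dividing and migrating, and RAB38 is a small GTPase that directs pigment enzymes to the maturing melanosome. S100A1 belongs to the S100 calcium-binding proteins, a family used to stain melanocytic tumours. CSPG4, also known as NG2 or the high-molecular-weight melanoma-associated antigen, is a transmembrane proteoglycan, and ST8SIA1 is the sialyltransferase that makes ganglioside GD3, a glycolipid abundant on melanoma cells.

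The table is a selection of changed features. The log2 ratios of group means leave a gap 1.99 wide, from -0.65 to 1.34 before the level between groups was set. The scaling used centres this gap on 0, from -0.995 to 0.995. At that level, presence in the table already implies a difference of about 2-fold or more between these same libraries. Of 2465 features tested, 71.5% were lower in CYGB-overexpression and 28.3% were higher (edgeR quasi-likelihood test, Benjamini-Hochberg adjusted p under 0.05). A call below is therefore a description of size and spread and not independent evidence of a change. Column totals were 1533260 to 1897052 counts in CYGB-overexpression and 2025159 to 2801576 in WT. These totals cover the selection alone, so library depth is unknown. CYGB itself had 22518, 20740 and 26267 counts in CYGB-overexpression, against 33, 47 and 37 in WT. CYGB-overexpression replicate 1 stood apart. Over features of at least 50 normalized counts, its median absolute log2 difference was 0.394 to replicate 2 and 0.385 to replicate 3, while that of replicate 2 to replicate 3 was 0.139 and WT pairs had 0.118 to 0.130. Values without it are given where it moves a result.

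All 5 genes fell in CYGB-overexpression under the scaling used, by 2.16-fold for S100A1, whose log2 fold change turned to 0.09 under TMM scaling over the whole table, and by up to 79.6-fold for ST8SIA1. In each gene every CYGB-overexpression library lay below every WT library, as in 71.2% of the features tested. The median log2 fold change of the 5 genes was -1.50, beside -1.30 over all features tested and -1.58 over the features called lower. As a group of 5, then, they sat near the middle of the lower features of this table, and the account below turns on how they differ from one another. When p-values were adjusted over all 58780 annotated genes, all 5 stayed past the threshold, as did 54.8% of the tested features on the lower side. The choice of level between the groups matters. Whole-table TMM, a scaling that assumes most listed features unchanged, raised the median feature by 1.197 log2 units. It left CSPG4 and ST8SIA1 past the threshold on the lower side, as it did 18.7% of features tested, and kept 4 of the 5 below 0, as it did 54.7%.

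**Figure D1:**
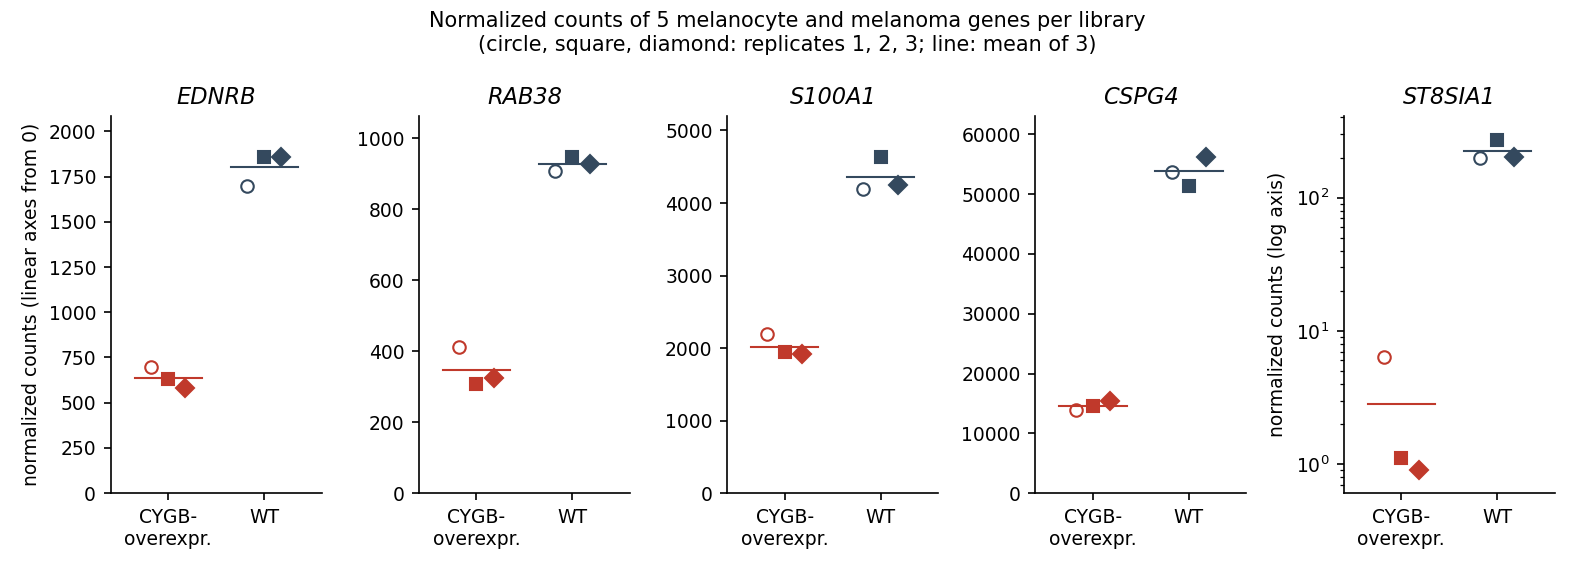
Normalized counts of the 5 genes in each library, CYGB-overexpression on the left and WT on the right of each panel (circle, square and diamond for replicates 1, 2 and 3, line for the mean, linear axes from 0 except a log axis for ST8SIA1). The groups are separate in every panel, and ST8SIA1 in CYGB-overexpression replicate 1, at 6.4, lies above replicates 2 and 3, at 1.117 and 0.909.

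EDNRB (ENSG00000136160, GRCh38 chromosome 13, 77895481 to 77975529, minus strand) had 654, 564 and 641 counts in CYGB-overexpression replicates 1 to 3, against 1543, 2348 and 1750 counts in WT replicates 1 to 3. Scaled for library, these were 697.6, 629.8 and 582.5 normalized counts in CYGB-overexpression and 1697, 1856 and 1860 in WT. The 3 CYGB-overexpression libraries lay close together and the highest of them was below the lowest WT library. EDNRB averaged 637 ± 57.8 normalized counts in CYGB-overexpression and 1804 ± 93.0 in WT (SD, n = 3 each), so 35.3% of the WT level remained. The log2 fold change was -1.50 (SE 0.11; edgeR adjusted p = 7.61e-06). Under whole-table TMM it was -0.30 (edgeR adjusted p = 0.0557), which ends the call.

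A second transcript of the EDNRB locus went the other way. AL139002.1 is a long non-coding RNA annotated on the same strand with a span that overlaps that of EDNRB, with 0 bases of annotated exon shared. It had 66, 60 and 71 counts in CYGB-overexpression, against 26, 38 and 24 in WT. Its log2 fold change was 1.26 (SE 0.23, edgeR adjusted p = 0.000692), so it rose while EDNRB fell. Under whole-table TMM the directions were the same, at 2.45 for AL139002.1. Both groups are at low counts. The annotation also places RNF219-AS1 on the opposite strand over 1.43% of the EDNRB exon bases, and no source used here gives the strand setting of the counting.

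RAB38 (ENSG00000123892, GRCh38 chromosome 11, 88113242 to 88175467, minus strand) had 386, 275 and 358 counts in CYGB-overexpression and 825, 1200 and 874 counts in WT. The normalized counts were 411.7, 307.1 and 325.3 in CYGB-overexpression, against 907.3, 948.4 and 928.9 in WT. CYGB-overexpression replicate 1 was the least low of its group, and the WT libraries were nearly level. The means were 348 ± 55.9 in CYGB-overexpression and 928 ± 20.6 in WT, which leaves 37.5% of the WT level. The log2 fold change was -1.42 (SE 0.14; edgeR adjusted p = 2.35e-05) and -1.55 without CYGB-overexpression replicate 1. Under whole-table TMM it was -0.22, with an edgeR adjusted p = 0.251.

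S100A1 (ENSG00000160678, GRCh38 chromosome 1, 153627926 to 153632039, plus strand) had 2062, 1737 and 2116 counts in CYGB-overexpression and 3811, 5869 and 4002 counts in WT. In normalized counts these were 2200, 1940 and 1923 in CYGB-overexpression, against 4191, 4639 and 4253 in WT. The CYGB-overexpression mean of 2021 ± 155 was 46.3% of the WT mean of 4361 ± 242. Its log2 fold change was -1.11 (SE 0.10; edgeR adjusted p = 1.82e-05), the smallest of the 5 and close to the edge of the selection. It is also the gene whose sign depends on the scaling: whole-table TMM gave 0.09. S100A13, another S100 gene, lies on the opposite strand over 7.76% of the S100A1 exon bases and AL162258.2 over 10.6%. Neither is in the table, so with an unknown strand setting some reads in either group may belong to them.

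CSPG4 (ENSG00000173546, GRCh38 chromosome 15, 75674322 to 75712848, minus strand) was by far the most abundant of the 5, ranking number 11 in mean normalized count among the 2465 features tested. It had 13007, 12993 and 17013 counts in CYGB-overexpression, against 48877, 64951 and 52917 counts in WT. The normalized counts were 13870, 14510 and 15460 in CYGB-overexpression and 53750, 51330 and 56240 in WT. Both groups were tight, and unlike the other 4 genes it was lowest in CYGB-overexpression replicate 1. The means were 14610 ± 799 in CYGB-overexpression and 53780 ± 2450 in WT, so 27.2% of the WT level remained. The log2 fold change was -1.88 (SE 0.08; edgeR adjusted p = 9.56e-07), a fall at least matched by 24.0% of the features tested. The call held under whole-table TMM, where the log2 fold change was -0.68 (edgeR adjusted p = 7.11e-05).

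Neighbours of CSPG4 in sequence or position gave mixed values. AC105020.4, an antisense transcript that shares 6.79% of the CSPG4 exon bases, had 53, 47 and 81 counts in CYGB-overexpression, against 176, 207 and 228 in WT. Its log2 fold change was -1.71 (SE 0.22; edgeR adjusted p = 0.00012), and under whole-table TMM it was -0.51, which ends the call (edgeR adjusted p = 0.0916). Per kilobase of annotated exon AC105020.4 stood at 108.1 normalized counts in CYGB-overexpression and 354.9 in WT, against 1763 and 6487 for CSPG4. The strand setting is not known, and how many of its reads come from CSPG4 was not tested. CSPG4P13, a pseudogene of CSPG4 on the same chromosome, had 7, 35 and 22 counts in CYGB-overexpression and 4, 3 and 4 in WT, too few to pass the filter. These counts are small beside those of CSPG4.

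ST8SIA1 (ENSG00000111728, GRCh38 chromosome 12, 22063773 to 22437041, minus strand) was nearly lost. It had 6, 1 and 1 counts in CYGB-overexpression, against 179, 344 and 190 counts in WT. In normalized counts these were 6.4, 1.117 and 0.909 in CYGB-overexpression and 196.9, 271.9 and 201.9 in WT. The mean was 2.81 ± 3.11 in CYGB-overexpression and 223.6 ± 41.9 in WT, so 1.26% of the WT level remained, and most of that came from CYGB-overexpression replicate 1. The log2 fold change was -6.29 (SE 0.45; edgeR adjusted p = 6.97e-06), number 13 in size among the features tested, and 0.325% of them had a log2 fold change as low or lower. Under whole-table TMM it was -5.12 (edgeR adjusted p = 2.23e-05).

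Summed over libraries, ST8SIA1 had 8 counts in CYGB-overexpression and 713 in WT, and WT exceeded CYGB-overexpression 83.9-fold (95% exact interval 42.4 to 195, counting error only). Without CYGB-overexpression replicate 1 that group held 2 counts and the ratio was 228 (95% exact interval 63.0 to 1890), with a fitted log2 fold change of -7.64. Leaving out any other library gave ratios of 59.9 to 88.8. The size of the fall therefore rests on that 1 library and its direction does not. As these are bulk libraries, fewer cells with the transcript and less transcript per cell cannot be told apart.

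Levels were compared between genes per kilobase of annotated exon. CSPG4 stood at 1763 ± 96.3 normalized counts per kilobase in CYGB-overexpression and 6487 ± 296 in WT. S100A1 followed at 667 ± 51.2 in CYGB-overexpression and 1439 ± 80.0 in WT, then RAB38 at 238 ± 38.2 in CYGB-overexpression and 634 ± 14 in WT, and EDNRB at 114 ± 10.3 in CYGB-overexpression and 322 ± 16.6 in WT. ST8SIA1 was last, at 0.194 ± 0.215 in CYGB-overexpression and 15.4 ± 2.89 in WT. The order was the same in both groups and every step was larger than the SDs. The exon lengths count all annotated isoforms, from 1465 bases for RAB38 to 14483 for ST8SIA1, so a level is understated where most isoforms are unused.

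**Figure D2:**
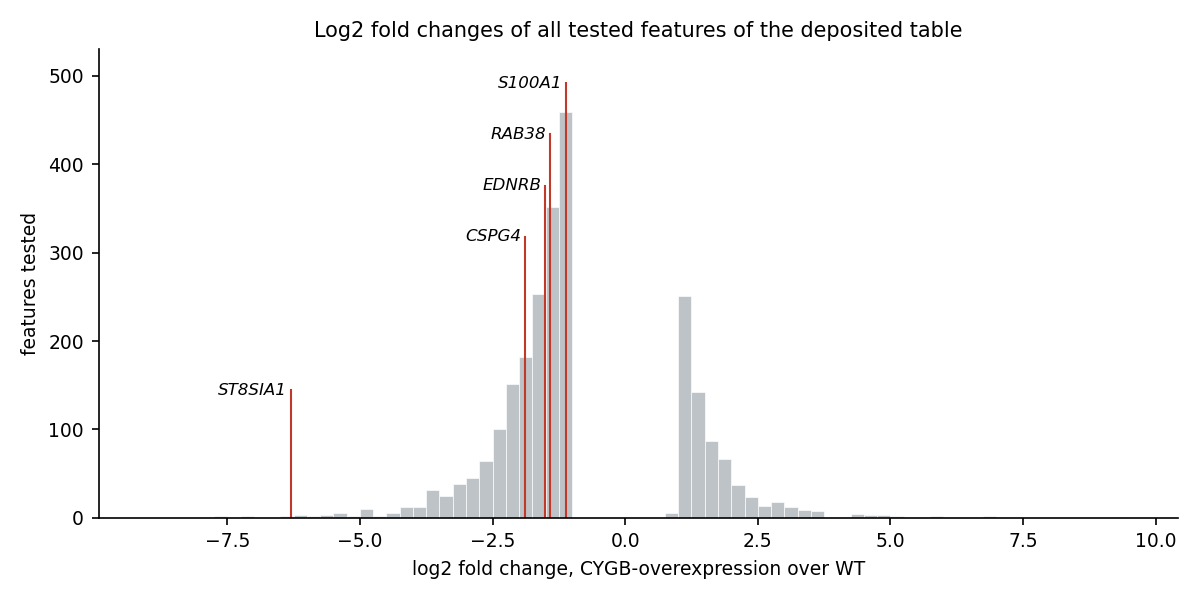
Log2 fold changes of the 2465 tested features (x axis, CYGB-overexpression over WT; y axis, number of features in steps of equal width), with the 5 genes marked by red lines whose heights carry no value. The empty stretch around 0 is the selection of the table. S100A1 at -1.11 lies at its edge, and ST8SIA1 at -6.29 in the far left tail.

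Whether the 5 genes fell by the same factor was asked with ratios of their counts within each library. Such a ratio needs no scaling between libraries, so these comparisons do not depend on the level set between the groups. Of the 10 pairs, the groups did not overlap in 9, among them every pair with ST8SIA1. The pairs share genes and are not independent. How often other pairs of features in the table separate was not tested. With 3 libraries against 3 the smallest two-sided p an exact permutation test can give is 0.1, and those 9 pairs reached it (exact p = 0.1, Benjamini-Hochberg adjusted p = 0.111 over the 10 pairs). None can pass 0.05 in this design.

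EDNRB and RAB38 were the pair that overlapped. The log2 ratio of EDNRB to RAB38 counts was 0.76, 1.03 and 0.84 in CYGB-overexpression, against 0.903, 0.968 and 1.001 in WT. The means differed by -0.08, less than the SD of 0.14 in CYGB-overexpression (exact permutation p = 0.5, adjusted 0.5). A difference between the falls of these 2 genes was not detectable.

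Among the other pairs, S100A1 and CSPG4 were the most unequal without ST8SIA1. The log2 ratio of S100A1 to CSPG4 counts was -2.66, -2.90 and -3.01 in CYGB-overexpression, against -3.68, -3.47 and -3.72 in WT. The difference of means was 0.77, several times the SDs of 0.18 in CYGB-overexpression and 0.14 in WT. In these libraries S100A1 thus kept more of its WT level than CSPG4 did, and no scaling enters that comparison, although its adjusted exact p of 0.111 misses the threshold. EDNRB and RAB38 lay between: relative to CSPG4 they were higher by 0.38 and 0.45 in CYGB-overexpression than in WT, and relative to S100A1 lower by 0.39 and 0.31.

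ST8SIA1 stood apart from each of the other genes. The log2 ratio of CSPG4 to ST8SIA1 counts was 10.97, 13.08 and 13.47 in CYGB-overexpression, against 8.09, 7.56 and 8.12 in WT, a difference of 4.58. With EDNRB, RAB38 and S100A1 in place of CSPG4 the difference was 4.96, 5.04 and 5.35. The lowest of the 3 CYGB-overexpression ratios was that of replicate 1 in all 4 pairs. These ratios use 0.5 added to each count, since ST8SIA1 was at 1 count in 2 libraries.

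**Figure D3:**
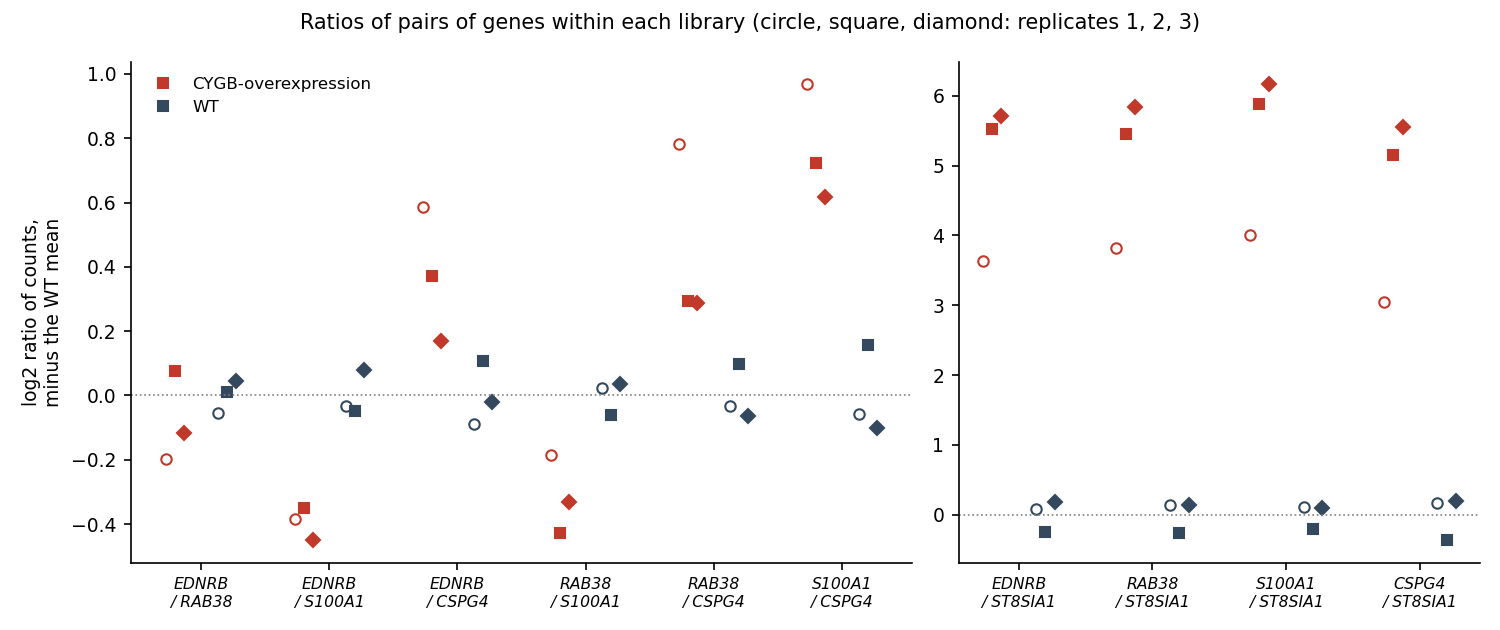
Log2 ratios of counts of 2 genes within each library, less the WT mean of that ratio (y axis), for 10 pairs (x axis), with CYGB-overexpression in red left of WT in dark blue and circle, square and diamond for replicates 1, 2 and 3. The right panel has its own scale. The groups overlap for EDNRB over RAB38 and are separate elsewhere, with a difference of 0.77 for S100A1 over CSPG4 and of 4.58 to 5.35 for the pairs with ST8SIA1.

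Other features of the table with the most similar profiles were found by the root mean square difference of log2(normalized count + 1) over the 6 libraries, each profile centred on its own mean, among 1176 other protein-coding features of at least 50 normalized counts. For EDNRB these were CLIP3, FAM20C and TMEM59L, at differences of 0.0637, 0.0765 and 0.0776 log2 units. For RAB38 they were BTG1, ABHD8 and CHST11 (0.0379 to 0.0513), for S100A1 PHLDA1, TMCC2 and TNFRSF19 (0.0373 to 0.0474), and for CSPG4 C9orf16, PRX and YPEL3 (0.0600 to 0.0646). The median difference to all those features was 0.357 to 0.429 for these 4 genes. ST8SIA1 had no match as close: IL1A, COL22A1 and ELF3 came nearest, at 0.334, 0.432 and 0.458, against a median of 2.57. Their log2 fold changes were -5.68, -5.87 and -6.2, beside -6.29 for ST8SIA1. How far the 6, 1 and 1 counts of ST8SIA1 in CYGB-overexpression limit a match was not tested. IL1A, a cytokine gene, had 390.4, 55.83 and 67.25 normalized counts in CYGB-overexpression and 8960, 8462 and 8781 in WT, so it too was least low in CYGB-overexpression replicate 1. Among the 5 genes themselves, EDNRB and RAB38 were the closest pair, at 0.0953.

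Upstream sequence is shown for 3 of the 5 genes. EDNRB and CSPG4 were taken because 1 of the motifs searched occurs in each, and ST8SIA1 because its fall was the largest. Each sequence is the 250 bases before a RefSeq start site (GRCh38.p14, minus strand), written in the direction of transcription, with motif matches in capitals. RefSeq promoter windows were matched for 4 of the 5 genes; RAB38 was not matched.
EDNRB, chr13:77919683-77919932: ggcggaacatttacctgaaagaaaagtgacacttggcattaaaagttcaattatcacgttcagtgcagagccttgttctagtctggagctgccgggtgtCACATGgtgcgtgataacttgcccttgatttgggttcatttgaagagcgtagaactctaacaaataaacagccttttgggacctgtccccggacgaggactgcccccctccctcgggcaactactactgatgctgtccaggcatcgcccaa
CSPG4, chr15:75712849-75713098: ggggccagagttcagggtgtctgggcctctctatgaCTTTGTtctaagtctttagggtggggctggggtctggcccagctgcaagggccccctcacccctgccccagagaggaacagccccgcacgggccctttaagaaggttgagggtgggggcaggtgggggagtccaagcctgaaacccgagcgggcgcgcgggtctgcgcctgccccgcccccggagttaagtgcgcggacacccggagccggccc
ST8SIA1, chr12:22334708-22334957: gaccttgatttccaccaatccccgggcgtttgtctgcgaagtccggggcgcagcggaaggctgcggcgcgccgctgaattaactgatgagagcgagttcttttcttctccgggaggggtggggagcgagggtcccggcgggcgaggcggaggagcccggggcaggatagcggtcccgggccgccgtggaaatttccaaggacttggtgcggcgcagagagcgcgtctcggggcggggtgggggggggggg

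The motifs searched on both strands were CACGTG and CATGTG, the E-boxes bound by MITF and related factors, ACAAAG, a SOX-type site, and TGANTCA, the AP-1 site. The matches found are in separate windows and do not overlap. CATGTG occurred in the EDNRB window on the reverse strand, from base -151 to base -146 relative to the start site, and in 9.42% of all 35116 such RefSeq windows. ACAAAG occurred in the CSPG4 window on the reverse strand, from base -214 to base -209, and in 13.7% of all windows. CACGTG and TGANTCA, found in 6.34% and 6.57% of all windows, are not in the windows of these 4 genes, which include a second EDNRB start site. GC content was 69.2% for ST8SIA1, 68.4% for CSPG4, 64% for S100A1 and 50% for the EDNRB window shown, beside a median of 58% over all windows.

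The wider melanocyte programme can be seen here only through listed genes that passed the selection of changed features. Of 30 listed melanocyte and pigment genes, 6 were present and 5 were tested. All 5 fell, with a median log2 fold change of -1.37, beside -1.30 over all features tested. When adjusted over all annotated genes 3 stayed lower, and under whole-table TMM 3 of 5 stayed below 0 and 1 passed. Over all features tested, 71.5% were lower, and 54.8% with that adjustment. Under whole-table TMM 54.7% were below 0 and 18.7% passed on the lower side. QPCT, a glutaminyl cyclase, had a log2 fold change of -1.18, which turned to 0.02 under whole-table TMM, and the apolipoprotein APOE had -1.37. BCL2A1, an anti-apoptotic BCL2 family member, had -3.57 with all libraries and -5.36 without CYGB-overexpression replicate 1. SOX9, a neural crest transcription factor, had -1.08, which turned to 0.11 under whole-table TMM. Of 10 defining melanocyte markers only TYRP1 and DCT, which encode melanin-synthesis enzymes, were in the table, and the other 8 were not analysed here. Both were near 0: TYRP1 had 8, 3 and 1 counts in CYGB-overexpression, against 25, 17 and 32 in WT (log2 fold change -2.53, edgeR adjusted p = 0.00358; -3.52 without CYGB-overexpression replicate 1). DCT had 0 counts in every CYGB-overexpression library and 2, 13 and 15 in WT. The exact interval of its fall (level 0.95, counting error only) began at 7.2-fold. Its lower end was 4.9-fold without CYGB-overexpression replicate 1 and 4.5-fold without CYGB-overexpression replicate 3. With 3 counts assumed over the group in place of 0, the ratio was 9.42, which leaves out counting error in WT. That ratio was 6.41 without CYGB-overexpression replicate 1 and 5.88 without CYGB-overexpression replicate 3.

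Few listed partners of each gene were among the changed features of the table. Of 24 endothelin axis genes, EDNRB and MME were in the table and both fell, where 71.5% of tested features were lower. MME, neprilysin, a peptidase that can degrade endothelins, had a log2 fold change of -1.93 (edgeR adjusted p = 5.82e-05). Under whole-table TMM both genes stayed below 0, as did 54.7% of tested features. MME alone passed, as did 18.7% of tested features on the lower side. The endothelin ligands and EDNRA were not analysed here. Of 50 melanosome transport genes only RAB38 was in the table; its relative RAB32 and the other 48 were not analysed here. Of 22 S100 family genes, 5 were present and 4 tested, and they split: S100A1 and S100P fell, while S100A2 and S100A5 rose, though under whole-table TMM S100P alone stayed below 0 and none passed on the lower side. S100P had a log2 fold change of -1.40, S100A5 of 1.59 and S100A2 of 1.61, the last falling to 0.97 without CYGB-overexpression replicate 1, where S100A2 stood at 1024 normalized counts against 381.9 and 382.6 in replicates 2 and 3. S100A2 lost its call when adjusted over all annotated genes (edgeR adjusted p = 0.159). S100Z had 11, 10 and 9 counts in CYGB-overexpression and 0, 1 and 2 in WT, and was not tested.

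Of 28 listed proteoglycan core proteins, the table of changed features held 5, CSPG4 included. All 5 fell, where 71.5% of tested features were lower, with a median log2 fold change of -1.88. When adjusted over all annotated genes 5 did so, beside 54.8% of tested features. Under whole-table TMM 4 of 5 stayed below 0 and 3 passed, beside 54.7% and 18.7% of tested features. Aggrecan (ACAN) had a log2 fold change of -3.31, serglycin (SRGN) of -3.07, perlecan (HSPG2) of -1.46 (-0.26 under whole-table TMM, edgeR adjusted p = 0.055) and glypican 6 (GPC6) of -1.02, which turned to 0.18 under whole-table TMM. Without CYGB-overexpression replicate 1, ACAN had -3.89. CSPG4 itself was thus in the middle of the 5 core proteins in the table.

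Of 41 ganglioside metabolism genes, 3 were in the table and all 3 fell: ST8SIA1, the sialyltransferase ST3GAL4 and A4GALT, which makes globotriaosylceramide. Under whole-table TMM 2 of 3 stayed below 0 and ST8SIA1 alone passed. ST3GAL4 had 6654, 7291 and 7039 normalized counts in CYGB-overexpression, against 14510, 14490 and 13540 in WT. Its log2 fold change was -1.02, which turned to 0.18 under whole-table TMM. That of A4GALT was -1.49, and -1.85 without CYGB-overexpression replicate 1. Under whole-table TMM A4GALT was at -0.29 and no longer called (edgeR adjusted p = 0.388). The enzymes of the steps before and after ST8SIA1, ST3GAL5 and B4GALNT1, were not analysed here. Of 40 other melanoma antigens, 4 were present and all 4 fell (median log2 fold change -1.14), though under whole-table TMM 1 stayed below 0 and 0 passed. MELTF, melanotransferrin, had a log2 fold change of -1.09 and MAGED2 of -1.05, which turned to 0.11 and 0.15 under that scaling. The cancer-testis antigen genes CTAG1A and CTAG1B had -1.40 and -1.18; they are near-identical copies, so the split of reads between them is uncertain. Of 25 genes of the dedifferentiated melanoma state, 3 were present and all 3 fell, while under whole-table TMM only SNAI2 stayed below 0: GDNF, a neurotrophic factor, had a log2 fold change of -1.12, the transcription factor SNAI2 of -1.48 and the growth factor NRG1 of -1.13. With adjustment over all annotated genes SNAI2 and NRG1 no longer passed (edgeR adjusted p = 0.102 and 0.0644). Beside the 5, these lists had 24 genes in the table. Of the 22 that could be tested 20 were lower and 2 were higher, and 71.5% of all tested features were lower. Under whole-table TMM 54.7% of all tested features were below 0 and 18.7% passed on the lower side.

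**Figure D4:**
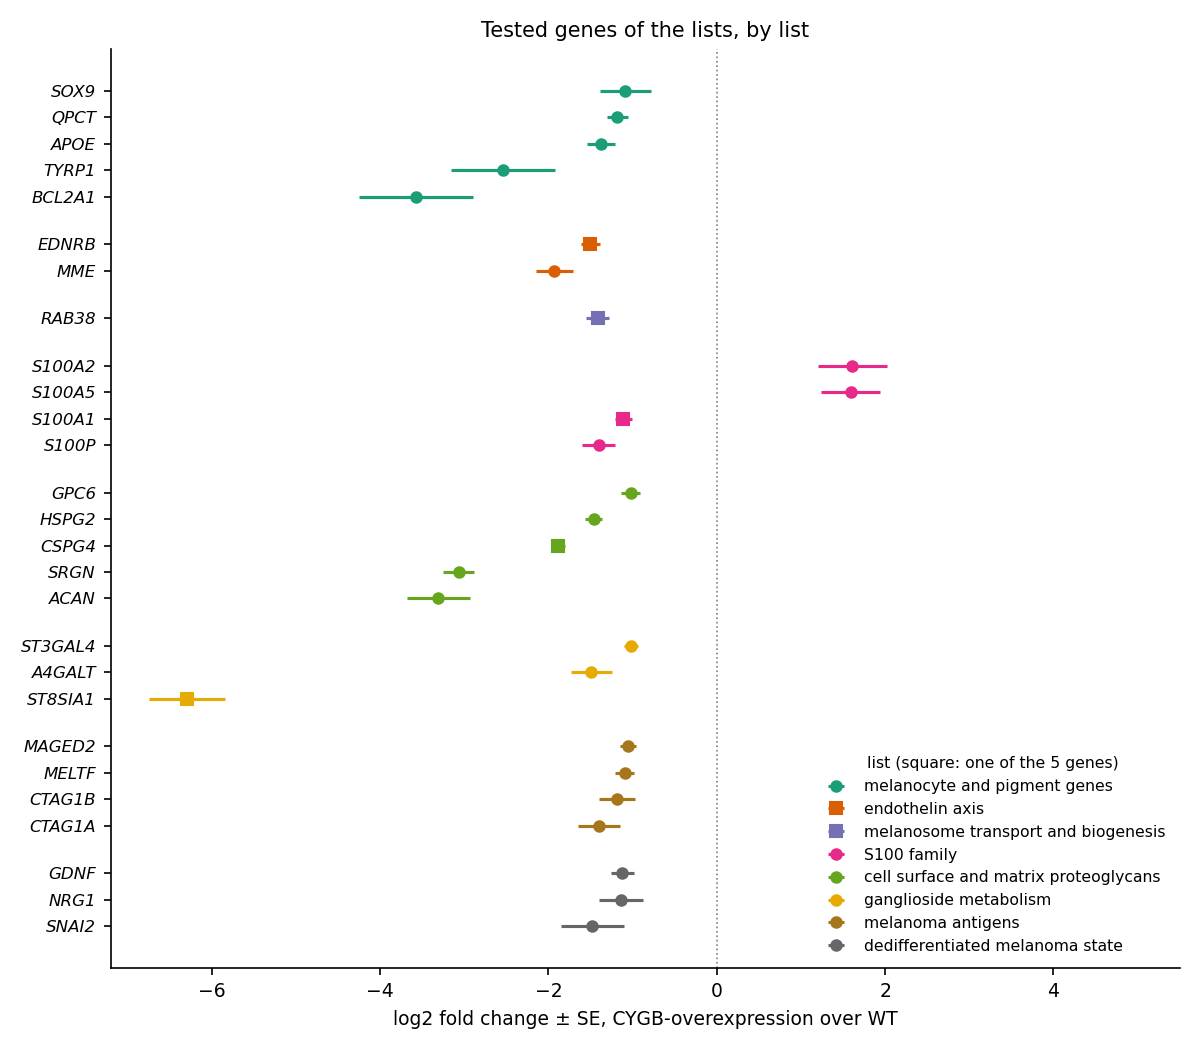
Log2 fold change with SE (x axis, CYGB-overexpression over WT) of the tested genes of each list (y axis, colours for lists, squares for the 5 genes). Under the scaling used, S100A2 and S100A5 lie above 0 and the others below it; under whole-table TMM QPCT, SOX9, S100A1, GPC6, ST3GAL4, MAGED2, MELTF, CTAG1B, GDNF and NRG1 also lie above 0.

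Markers of other cell types that are in the table also differed between the groups, at low levels. Presence in the table already implies such a difference. Of all tested features, 71.5% were lower and 28.3% were higher. The keratinocyte list (1 of 12 genes in the table, KRT14) summed to 51.8 to 68.1 normalized counts in CYGB-overexpression and 13.8 to 20.6 in WT. The fibroblast list (2 of 10, COL1A2 and COL3A1) summed to 38.4 to 192.7 in CYGB-overexpression and 1.1 to 3.95 in WT. The endothelial list (2 of 8, KDR and TIE1) summed to 16.8 to 34.1 in CYGB-overexpression and 165.8 to 191.4 in WT. Under whole-table TMM KDR stayed called lower (log2 fold change -2.37, edgeR adjusted p = 4e-05) and TIE1 did not (-0.86, edgeR adjusted p = 0.1). The leukocyte list (2 of 9, LYZ and ITGAM) summed to 229.3 to 340.8 in CYGB-overexpression and 129.7 to 171.6 in WT. The 2 leukocyte genes went opposite ways: LYZ rose (log2 fold change 2.49, edgeR adjusted p = 1.6e-05), while ITGAM fell (-5.43, edgeR adjusted p = 0.000145), with 6, 0 and 0 counts in CYGB-overexpression and 106, 101 and 81 in WT. The size of the ITGAM fall depends on CYGB-overexpression replicate 1, the library of that group with counts. The fitted log2 fold change was -9.58 without replicate 1, where the group is left at 0 counts, and -4.79 without replicate 3. Of the defining markers, ITGAM was at 0 in CYGB-overexpression replicates 2 and 3, COL1A2 at 0 in WT replicate 1 and COL3A1 at 0 in WT replicate 3. Their part in the changes of the 5 genes was not tested.

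**Figure D5:**
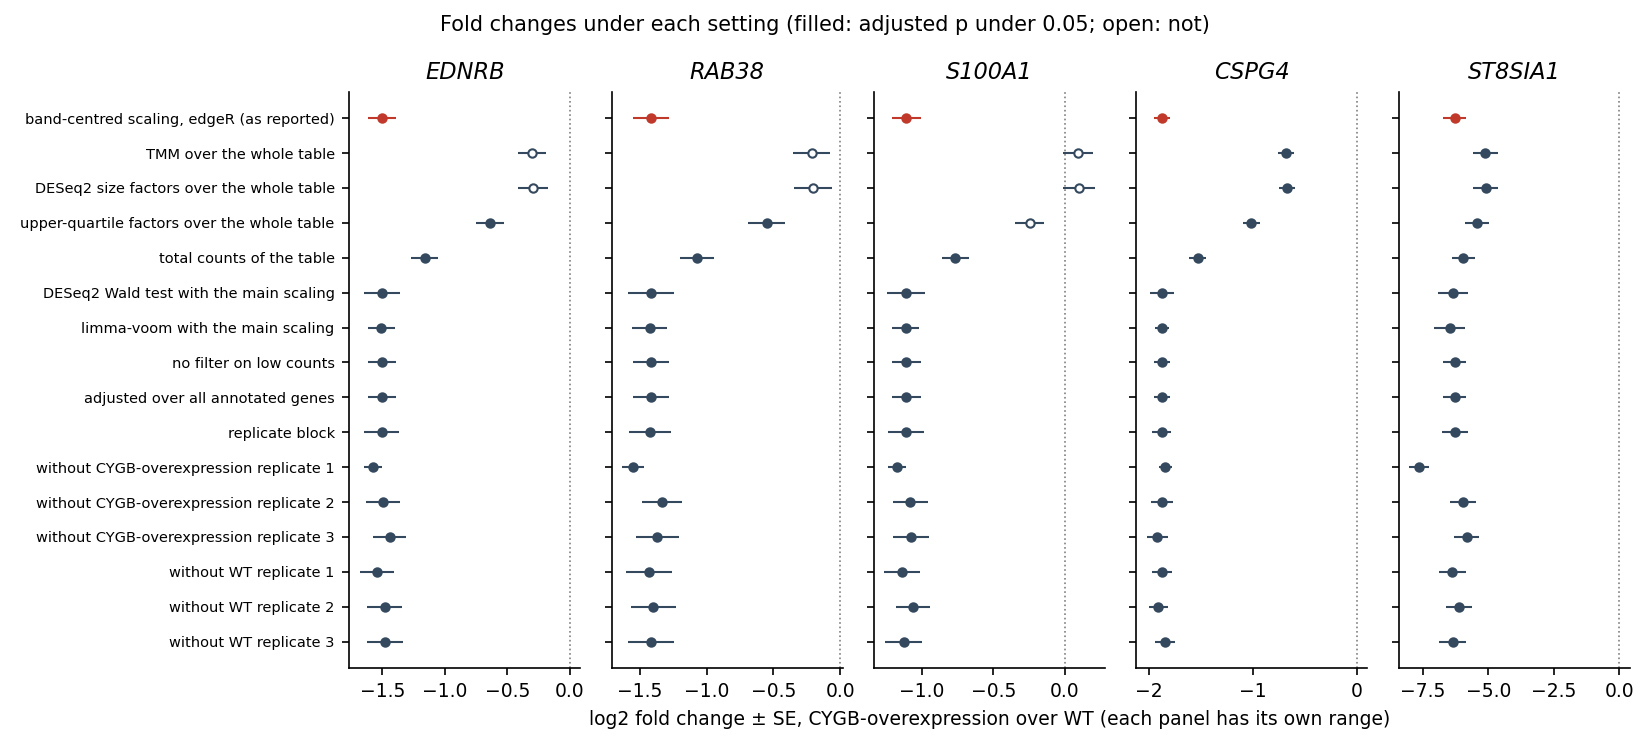
Log2 fold change with SE (x axis, CYGB-overexpression over WT) of each gene under the reported setting, in red, and 15 alternatives (y axis); filled points have an adjusted p under 0.05. The points move with the scaling between groups, S100A1 from -1.11 to 0.09 under whole-table TMM, and little with the test or with the libraries left out, except ST8SIA1, at -7.64 without CYGB-overexpression replicate 1.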

How the data were processed

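The authors deposited raw counts per feature in 1 table with 1 column per library, per the file headers. Per the submitters' processing notes, STAR 2.5.2b, Trimmomatic 0.36, Subread 1.5.2 and featureCounts were used, and the build was GRCh38. The annotation, the strand setting and the selection rule were not given in the sources used here. Per the labels' protocols, RNA was column-purified and poly(A)-selected. Of 2778 features, 2611 were found in GENCODE 29, which gave coordinates and exon lengths.

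Libraries of a group were scaled to each other by TMM; between groups, the scale puts 0 at the centre of the gap in log2 ratios, which is 1.99 wide. Dividing counts by the resulting factors gave normalized counts. The test was edgeR 4.0.16 (R 4.3.3), quasi-likelihood, two-sided, filterByExpr with minimum count 10, adjusted over the 2465 features tested, threshold 0.05; SE was derived from the F statistic. DESeq2 1.42.0 and limma 3.58.1 were alternatives. Tests were checked on simulated data. Intervals cover counting error only. The genes, lists, motifs and tests were chosen with earlier results of these data known. Genes named beside the 5 are every list member in the table, the 3 nearest profiles of each gene, CYGB, and annotated features overlapping or copied from the 5, the last chosen after their values were seen. Same-numbered libraries of the groups were not found to be paired. One of the marker lists for other cell types is not reported here.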

Additional observations from a re-analysis of the deposited data

How the results depend on the processing

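The 5 genes kept their direction and their call with DESeq2, limma-voom, no filter on low counts, adjustment over all annotated genes, total-count scaling, and each library left out. The 10 differences between genes kept their direction with 1 count added in place of 0.5 and with each library left out. Scaling over the whole table is where results changed. With TMM the log2 fold change was -0.30 for EDNRB, -0.22 for RAB38 and 0.0897 for S100A1, and with DESeq2 size factors it was -0.30, -0.21 and 0.0981; none passed, so 2 of the 5 stayed called lower under each. With upper-quartile factors S100A1 was at -0.25 and not past the threshold. Features called lower numbered 465, 462 and 887 under these 3 scalings, against 1762, and higher 745, 745 and 736, against 697; the share of lower calls was 38.4%, 38.3% and 54.7%, against 71.7%. Of the other listed genes, 4 stayed called lower under TMM, against 20 under the scaling used. Of all tested features, 18.7% were called lower under TMM, against 71.5%. These scalings assume mostly unchanged features, which this selection lacks; the level used here assumes that the selection was symmetric, which was not tested.

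With one library left out, log2 fold changes ran from -1.58 to -1.44 for EDNRB, -1.55 to -1.33 for RAB38, -1.18 to -1.06 for S100A1, -1.92 to -1.84 for CSPG4 and -7.64 to -5.83 for ST8SIA1. Adding the replicate number as a block gave -1.51, -1.43, -1.11, -1.88 and -6.28 with 5 of 5 called. With the block 696 features were higher and 1763 lower, against 697 and 1762 without it. Same-numbered libraries correlated at 0.01, -0.04 and 0.02, and the other pairs across groups at -0.05 to 0.06. Whether same-numbered libraries share a culture or batch was not tested. Paired sign flips over the 3 shared numbers cannot give a p under 0.25 and gave 0.25 for the 9 separated pairs. The low counts of ST8SIA1 in CYGB-overexpression limit the precision of its fold, and the depth of the libraries is unknown.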
